A study of Mus musculus with 7 samples.

Results

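The heat shock protein and J-domain genes encode the molecular chaperones of the cell. They were chosen by name, as every gene symbol of the expression table that begins with Hspa, Hspb, Hspd, Hspe, Hsph or Hsp90, or with Dnaja, Dnajb or Dnajc and a number, pseudogenes left out. This gave 72 of 28233 genes, 29 Hsp genes and 43 Dnaj genes. RNA came from 7 subcutaneous tumours of B16mhgp100, a mouse B16 melanoma line, grown in C57BL/6 mice. In 4 tumours (Cr1l 1 to Cr1l 4) Cr1l was over-expressed, the gene of Crry, a membrane inhibitor of complement, and 3 tumours (Vec 5 to Vec 7) carried the vector. All 7 mice received the same antibody against PD-1, an inhibitory T cell receptor, at 200 µg per dose, 4 times in all at a rate of 2 per week, starting on day 10 after inoculation, and the tumours were removed 1 day after the last dose. The labels do not say whether each line was 1 clone, which promoter drove Cr1l, or the age of the mice, and there was no tumour without the antibody.

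Chaperones hold unfolded proteins until they can fold, be moved or be degraded. HSP70 proteins do this in a cycle driven by ATP. J-domain (DNAJ) proteins bring clients to HSP70 and trigger ATP hydrolysis, nucleotide exchange factors such as the HSP110 proteins reset the cycle, and HSP90 takes over clients that are nearly folded, many of them kinases and steroid receptors. Small heat shock proteins need no ATP and hold clients in large assemblies. Heat and unfolded protein in the cytosol switch on the factor HSF1, which binds repeated GAA units in target promoters. Unfolded protein in the endoplasmic reticulum (ER) switches on a separate programme, the unfolded protein response, with its own chaperones. Chaperones are abundant in melanoma, as in many tumours.

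Expression was deposited as TPM, a share of all transcripts of the tumour corrected for transcript length, so levels of different genes can be set side by side. TPM summed to between 993520 and 996031 per tumour and 13634 to 15352 genes reached 1 TPM. The read depth of each tumour is unknown, so no counting error can be given for its TPM values. Cr1l averaged 79.1 ± 3.12 TPM in Cr1l tumours and 51.2 ± 4.45 TPM in Vec tumours (SD, n = 4 and 3). The melanocyte lineage was clear in every tumour, with Pmel, a melanosome matrix protein, between 2950 and 7813 TPM and all 10 melanocyte markers detected. Tumours also differed in other tissue. The summed TPM of 12 striated muscle genes was 29.0, 15.7, 331 and 10.7 in Cr1l 1 to 4, against 394, 1948 and 80.4 in Vec 5 to 7, and 8 keratinocyte genes gave 1.61, 1.00, 90.6 and 2.99 against 75.9, 1034 and 9.50. Globin genes made up 4.14% of TPM in Vec 6, 0.973% in Vec 7 and 0.0106% to 0.0417% elsewhere. The 14 macrophage markers summed to 603, 1029, 5964 and 5023 TPM in Cr1l tumours, against 1613, 849 and 510 in Vec tumours. In bulk tissue, fewer cells of a type and less RNA per cell cannot be told apart.

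The 72 chaperone genes together took a similar share of the transcriptome in both groups. Their summed TPM was 10867, 9972, 7823 and 7629 in Cr1l 1 to 4, against 11627, 8993 and 10480 in Vec 5 to 7, which is 1.09%, 1.00%, 0.785% and 0.767% of TPM against 1.17%, 0.904% and 1.05%. The ranges overlapped. The limma test on log2(TPM + 1) took the 14954 genes whose mean reached 1 TPM, and 66 of the 72 chaperone genes were among them. No chaperone gene passed an adjusted p of 0.05 in either direction, where 0% of all tested genes passed as higher and 0.0134% as lower. At an unadjusted p under 0.05, 4 chaperone genes were higher in Cr1l tumours, 6.06% of those tested, beside 9.49% of all genes, and 9 were lower, 13.6% beside 6.07%. In 6 genes every Cr1l tumour lay above every Vec tumour (9.09%, beside 9.29% of all genes), and in 11 every Cr1l tumour lay below (16.7%, beside 6.67%). Hspb7, among the lower ones in both counts, passed the filter through the Vec tumours alone. The median log2 fold change of the 66 was −0.081, against 0.054 for all tested genes, and 38 of them lay within 0.25 of 0. The 4 that lay past 1 in size were Hspb1, Hspb6 and Hspb7, which were lower in Cr1l tumours, and Hspa1a, which was higher. In the authors' deposited table, 5 of 69 chaperone genes with an adjusted p were called lower (7.25%, beside 2.27% of all genes) and 0 were called higher (beside 4.74%). The 5 were Hspb1, Hspb6, Hspb7, Hspb8 and Hspbp1, and all of them had groups that did not overlap in TPM.

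**Figure D1:**
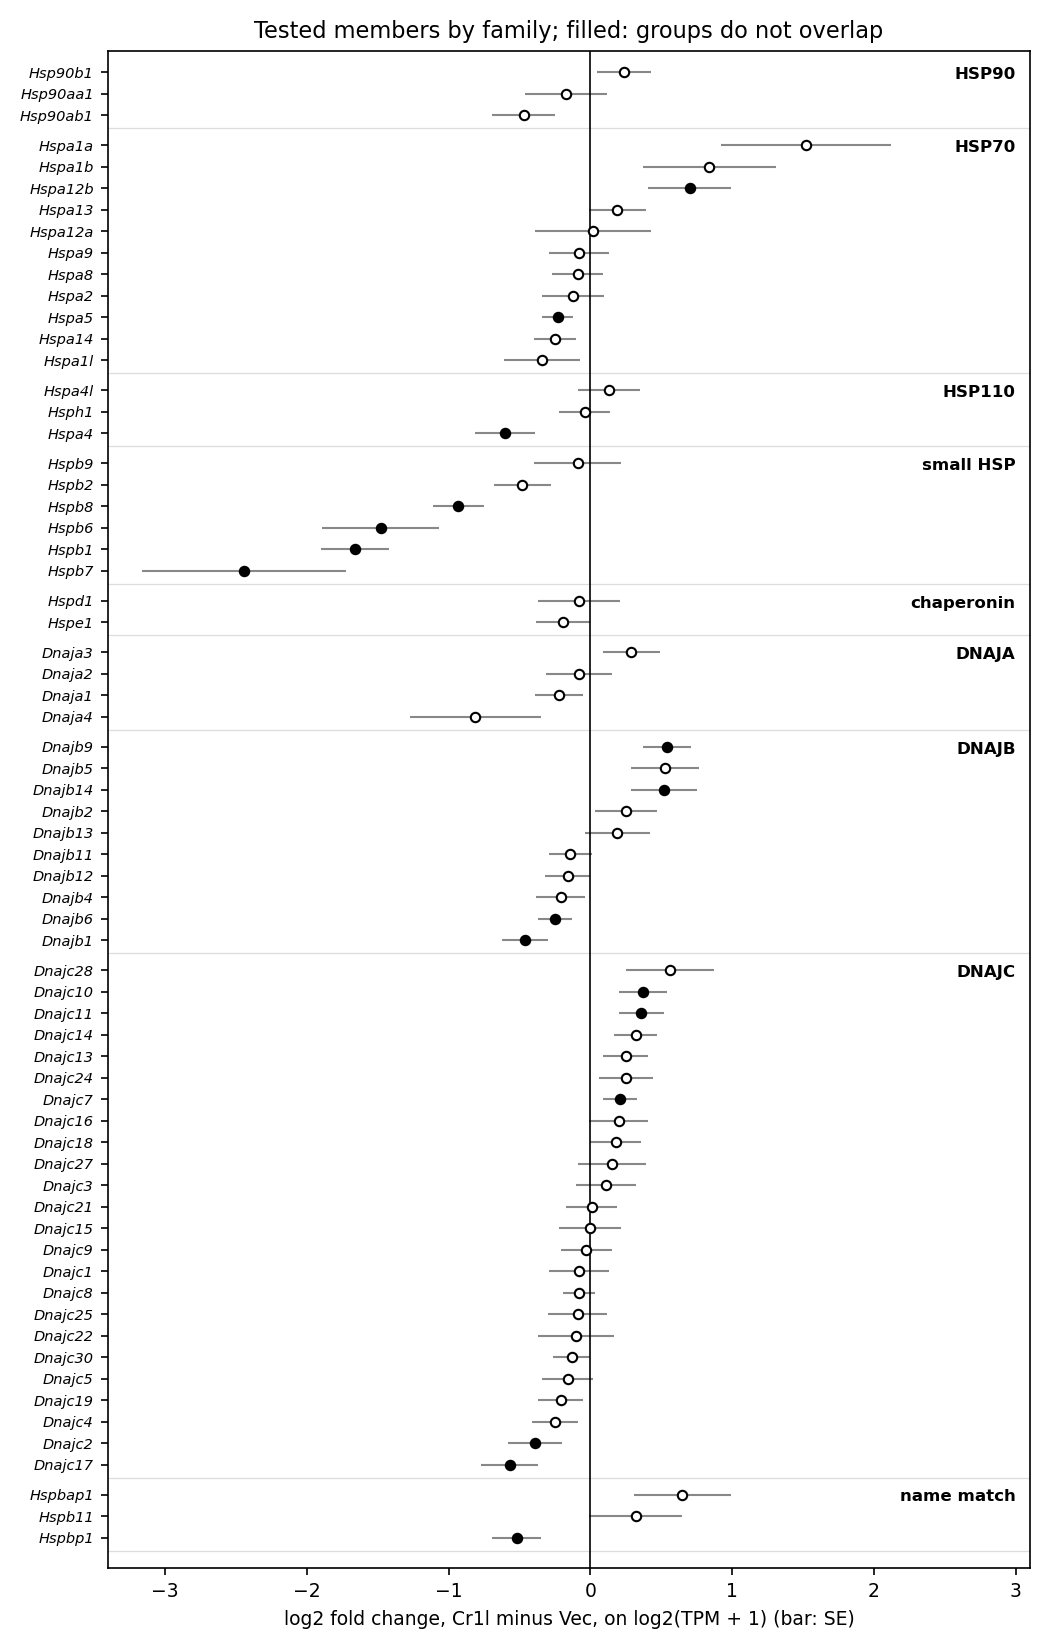
Log2 fold change (Cr1l minus Vec, log2(TPM + 1) scale, horizontal axis) of the chaperone genes, with the standard error of the limma fit as bars, for the 66 tested genes by family. Filled points are genes whose groups do not overlap. Most points sit close to 0, while Hspb1, Hspb6, Hspb7 and Hspb8 lie lowest on the left and Hspa1a, at 1.52, lies farthest to the right.

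The small heat shock proteins carried most of the largest differences. Of the 7 genes, Hspb3 was too low to test and Hspb7 passed the filter on low values through the Vec tumours alone, so it had to differ and is left out of the count. Of the other 5, 4 were lower at an unadjusted p under 0.05 (beside 6.07% of all tested genes) and 0 were higher (beside 9.49%). The summed TPM of all 7 was 164, 157, 153 and 133 in Cr1l tumours, against 317, 457 and 272 in Vec tumours, with no overlap.

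Hspb1, called HSP25 in mice and HSP27 in humans, binds unfolded proteins and actin. It had 37.4, 38.1, 53.3 and 36.6 TPM in Cr1l 1 to 4, against 118, 190 and 101 TPM in Vec 5 to 7. Every Cr1l tumour lay well below the lowest Vec tumour. The log2 fold change was −1.66 (SE 0.24), which is 0.316 times the Vec level on the TPM + 1 scale, with an unadjusted p of 1.30e-04 and a limma adjusted p of 0.0773, and the exact permutation p was 0.0286, the smallest that 4 against 3 tumours allow. The authors' deposited table gave −1.80 with an adjusted p of 1.73e-05.

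Hspb8, or HSP22, works with Bag3 to send damaged proteins to autophagy. It had 49.6, 46.9, 38.8 and 39.7 TPM in Cr1l tumours, against 106, 81.1 and 69.0 TPM in Vec tumours. The groups did not overlap and the Cr1l tumours lay close together. Its log2 fold change was −0.93 (SE 0.18, limma adjusted p = 0.119, exact p = 0.0286), and the authors' deposited table gave −1.02 with an adjusted p of 1.20e-04. Bag3 itself, named after its values had been seen, had 53.1, 50.1, 49.4 and 44.5 TPM in Cr1l tumours, against 79.4, 59.3 and 58.2 TPM in Vec tumours, also without overlap (log2 fold change −0.39, limma adjusted p = 0.282, or −0.25 without Vec 5).

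Hspb6 (HSP20) and Hspb7 are best known from heart and skeletal muscle. Hspb6 had 10.1, 12.2, 16.4 and 9.98 TPM in Cr1l tumours, against 26.1, 75.5 and 21.8 TPM in Vec tumours. Hspb7 had 0.08, 0.17, 1.16 and 0.20 TPM in Cr1l tumours, against 4.96, 24.5 and 1.55 TPM in Vec tumours. Neither gene overlapped between the groups, and in both Vec 6 stood far above the other tumours. The log2 fold changes were −1.48 (SE 0.41, limma adjusted p = 0.223) for Hspb6 and −2.44 (SE 0.72, limma adjusted p = 0.229) for Hspb7. The authors' deposited table gave −1.86 (adjusted p = 0.00749) for Hspb6 and −4.78 (adjusted p = 2.57e-04) for Hspb7.

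Hspb2, another small heat shock protein of muscle, had 65.5, 58.5, 41.8 and 45.5 TPM in Cr1l tumours, against 60.1, 83.6 and 77.7 TPM in Vec tumours. Vec 5 lay below Cr1l 1, so the groups overlapped (log2 fold change −0.48, SE 0.20, limma adjusted p = 0.306, exact p = 0.114). The span of Hspb2 overlaps that of its neighbour Cryab, and the libraries did not keep strand, so reads in the shared stretch could belong to either gene. Cryab, which encodes αB-crystallin, a small heat shock protein whose symbol lies outside the naming rule, had 439, 417, 302 and 343 TPM in Cr1l tumours, against 560, 524 and 572 TPM in Vec tumours (log2 fold change −0.57, SE 0.15, limma adjusted p = 0.219, exact p = 0.0286). It was the most abundant small heat shock protein transcript of these tumours. Hspb9, a testis gene, had 1.11, 1.14, 1.20 and 1.14 TPM in Cr1l tumours, against 1.32, 2.21 and 0.61 TPM in Vec tumours, which straddled them.

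**Figure D2:**
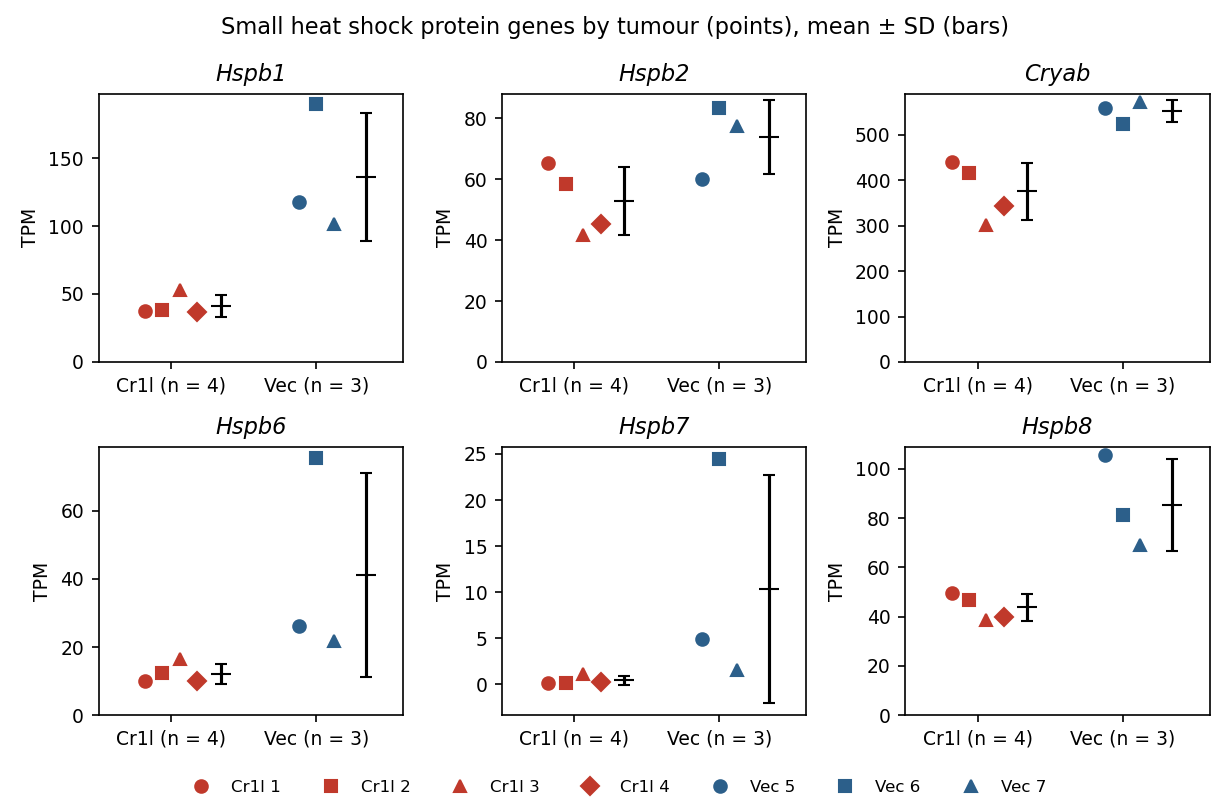
TPM of small heat shock protein genes, Cryab included, in each tumour, 1 panel a gene, with Cr1l tumours left of Vec tumours. Points are tumours, the bars are mean ± SD, and in Hspb7 the lower bar of Vec (mean 10.3, SD 12.4) runs below 0 since Vec 6 lies far above Vec 5 and Vec 7. In every panel but that of Hspb2 each Cr1l point lies below each Vec point, and in Hspb1, Hspb2, Hspb6 and Hspb7 Vec 6 is the highest.

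Muscle RNA moved with some of these genes. All 12 striated muscle markers had negative fold changes (beside 44.6% of all tested genes). At an unadjusted p under 0.05, 6 were lower (beside 6.07%). These markers include Myh2 and Ttn, which passed the filter through the Vec tumours alone and so had to come out lower. Their means were 0.338 and 0.480 TPM in Cr1l tumours, against 6.95 and 2.48 TPM in Vec tumours. Myh2 is among the 6. In all 12 markers the groups overlapped, where 6.67% of all tested genes were lower without overlap. Acta1, skeletal actin, had 0.47, 1.37, 94.3 and 0.12 TPM in Cr1l tumours, against 130, 643 and 25.0 TPM in Vec tumours. Vec 6 had the most muscle RNA and also the most Hspb6, Hspb7, Hspb1 and Hspb2. Vec 6 was likewise highest in keratinocyte markers, with a sum of 1034 TPM against 1.00 to 90.6 TPM in the other tumours. Its globin share was also the highest, 4.14% against at most 0.973%. The part of keratinocytes and blood in these levels was not tested. Cr1l 3 had more muscle RNA than Vec 7, with summed marker TPM of 331 against 80.4, and less of each of Hspb1, Hspb6, Hspb7 and Hspb8. Without Vec 6 the log2 fold changes were −1.40 for Hspb1, −0.96 for Hspb8, −0.94 for Hspb6 and −1.54 for Hspb7. A fit with the muscle markers as a covariate was chosen after seeing the data. It gave −1.13 for Hspb1 (limma adjusted p = 0.330) and −0.94 for Hspb8 (limma adjusted p = 0.330). For Hspb6 it gave −0.61 (limma adjusted p = 0.394) and for Hspb7 −0.87 (limma adjusted p = 0.433). The markers themselves were lower in Cr1l tumours, so this covariate cannot be fully separated from group. The part of muscle tissue in the differences of these genes was not tested. With the melanocyte markers as a covariate, Hspb1 passed the adjusted threshold (log2 fold change −1.81, limma adjusted p = 0.0486). Over the 18 settings tried the log2 fold change of Hspb1 stayed between −1.85 and −1.13 and that of Hspb8 between −1.26 and −0.77.

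**Figure D3:**
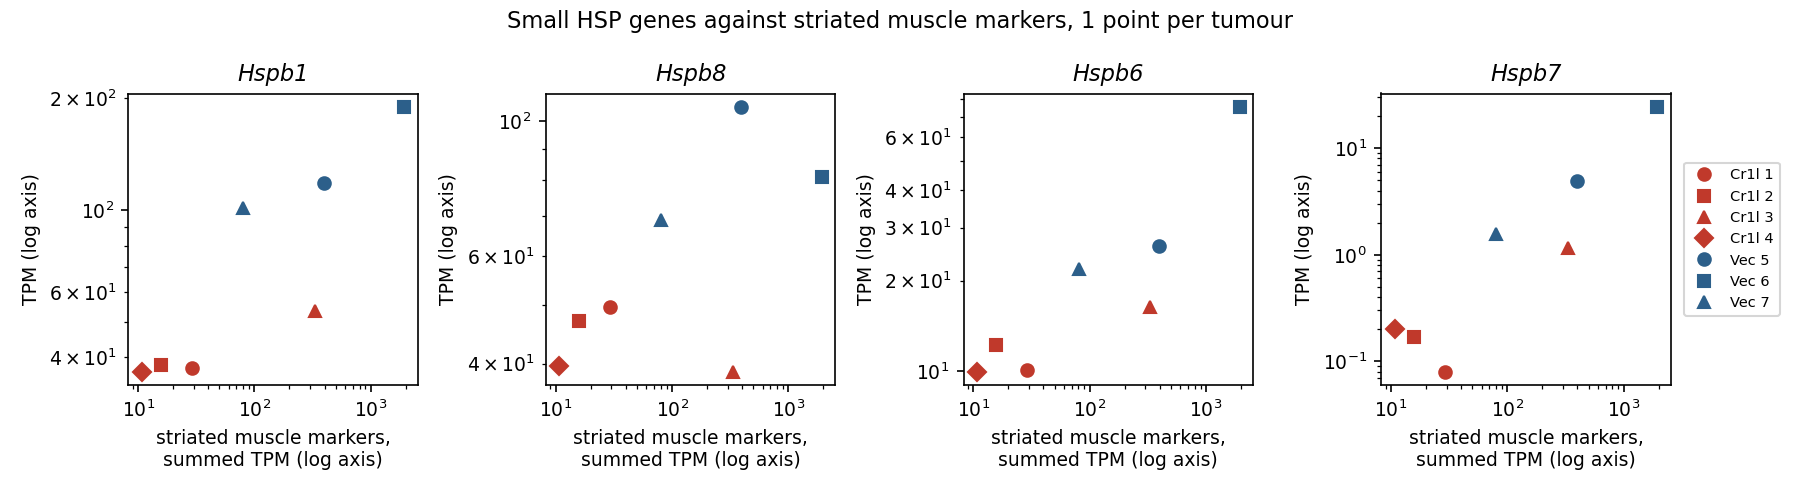
TPM of Hspb1, Hspb8, Hspb6 and Hspb7 (vertical axes) against the summed TPM of 12 striated muscle markers (horizontal axes), on log axes, 1 point a tumour. Cr1l 3 lies to the right of Vec 7 in each panel and below it, and Vec 6 lies farthest to the right.

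Some promoters of inducible genes hold the HSF1 element, and 4 stretches are shown because Hspb1 and Hspb6 were lower in Cr1l tumours while Hspa1a, with the same kind of element, was higher. RefSeq promoter windows (build GRCm38.p6, 250 bases before to 50 bases after a start) were found for 59 of the 72 genes, in 76 windows. The search was for 2 facing heat shock units, GAANNTTC or TTCNNGAA, on both strands. Capitals mark the matches. The stretches were chr5:135887769-135887868, plus strand, for Hspb1, chr17:34972207-34972306, minus strand, for Hspa1a, chr17:34959289-34959388, minus strand, for Hspa1b, and chr7:30553170-30553199, plus strand, for Hspb6.
Hspb1: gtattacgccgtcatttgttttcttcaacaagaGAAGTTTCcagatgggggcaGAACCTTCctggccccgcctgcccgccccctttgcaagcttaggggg
Hspa1a: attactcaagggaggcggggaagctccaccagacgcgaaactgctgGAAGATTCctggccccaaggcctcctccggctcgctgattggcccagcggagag
Hspa1b: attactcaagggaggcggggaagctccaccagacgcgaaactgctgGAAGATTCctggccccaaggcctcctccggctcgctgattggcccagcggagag
Hspb6: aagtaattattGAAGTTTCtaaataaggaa
The printed stretch of Hspb1 held 2 matches and those of the others 1. These counts are of the printed stretches, not of whole windows, and the stretch of Hspb6 is shorter. Hspb6 has more than 1 window, and its stretch comes from 1 of them. Hspa1a and Hspa1b are near-identical copies, and 247 of the 250 bases before their starts were the same (98.8%), all of the printed stretch included. A pair was found in 17 of the 76 chaperone windows (22.4%) and in 15.1% of all 32851 windows. It is thus a common string, and Hspb7 and Dnajb1 had none in their windows. The longer run, in which another facing unit follows after 2 bases of any kind, contains pairs and was rarer. It lay in 0.603% of all windows and in 6 of the 76 chaperone windows (7.89%), those of Dnajb6, Hspd1, Hspe1 and Hsph1. Hspe1 at chr1:55088052-55088081, plus strand, is shown as the example.
Hspe1: cggtccgTTCTAGAACCTTCCGGAAggccc
A match is a string of letters and not a measured binding site.

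Of 14 tested genes that HSF1 induces, 11 had negative (beside 44.6% of all tested genes) and 3 positive log2 fold changes, most of them small. At an unadjusted p under 0.05, 1 was higher (beside 9.49% of all tested genes) and 2 were lower (beside 6.07%), none passed the adjusted threshold, and their median log2 fold change was −0.18. Hspa1a and Hspa1b, the strictly inducible HSP70 genes, are the most sensitive of them to heat. Hspa1a had 7.06, 12.1, 20.5 and 36.4 TPM in Cr1l tumours, against 6.19, 9.51 and 1.82 TPM in Vec tumours. Vec 6 lay above Cr1l 1, and Cr1l 4 was the highest (log2 fold change 1.52, SE 0.60, unadjusted p = 0.0367, limma adjusted p = 0.298, exact p = 0.114). Without Vec 7 its log2 fold change was 0.97, and with the macrophage markers as a covariate it was 0.74.

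Hspa1b had 15.6, 28.2, 24.4 and 47.9 TPM in Cr1l tumours, against 9.61, 30.7 and 10.2 TPM in Vec tumours (log2 fold change 0.84, limma adjusted p = 0.406). Its log2 fold change was 1.36 without Vec 6 and 0.57 without Cr1l 4 or without Vec 5. Reads cannot be assigned with certainty between 2 such similar copies, so their sum is safer. It was 22.7, 40.4, 44.9 and 84.3 TPM in Cr1l tumours, against 15.8 and 40.2 TPM in Vec 5 and Vec 6 and less than either in Vec 7, and the groups overlapped through Vec 6 and Cr1l 1.

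Dnajb1, the main inducible HSP40 and the partner of Hspa1a in refolding, went the other way. It had 33.2, 37.6, 25.6 and 29.5 TPM in Cr1l tumours, against 38.5, 44.9 and 46.5 TPM in Vec tumours, with a narrow gap and no overlap (log2 fold change −0.46, SE 0.16, unadjusted p = 0.0237, limma adjusted p = 0.270, exact p = 0.0571). Hsph1, or HSP105, a steeply inducible exchange factor, had 85.2, 70.7, 55.2 and 52.5 TPM in Cr1l tumours, against 66.6, 68.7 and 64.3 TPM in Vec tumours, which lay within the Cr1l range (log2 fold change −0.04).

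The constitutive chaperones of the cytosol were among the most abundant transcripts. Hspa8 (HSC70), which folds new proteins and uncoats clathrin vesicles, had 1615, 1448, 1343 and 1045 TPM in Cr1l tumours, against 1636, 1255 and 1430 TPM in Vec tumours (log2 fold change −0.09). Hsp90ab1, the constitutive HSP90, had 2398, 2159, 1539 and 1383 TPM in Cr1l tumours, against 2869, 2140 and 2637 TPM in Vec tumours. Cr1l 3 and Cr1l 4 were the lowest of the 7, and Cr1l 1 and Cr1l 2 overlapped the Vec tumours (log2 fold change −0.47, SE 0.22, limma adjusted p = 0.346). The same 2 tumours had the lowest melanocyte marker sums, 10313 and 11833 TPM, against 14963 to 23070 TPM in the other tumours. They also had the highest macrophage sums, 5964 and 5023 TPM, and the highest fibroblast sums, 6279 and 4975 TPM. With the melanocyte markers as a covariate the log2 fold change of Hsp90ab1 was −0.26 (limma adjusted p = 0.219). With the macrophage markers it was −0.23 (limma adjusted p = 0.610). The part of any of these cell types in the Hsp90ab1 levels was not tested. Hsp90aa1, the inducible HSP90, had 1216, 1111, 612 and 743 TPM in Cr1l tumours, against 1316, 768 and 969 TPM in Vec tumours, again lowest in Cr1l 3 and Cr1l 4. Its log2 fold change was −0.17, or 0.10 with the melanocyte and 0.09 with the macrophage covariate.

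Dnaja1, a farnesylated HSP40, had 221, 199, 182 and 158 TPM in Cr1l tumours, against 253, 177 and 236 TPM in Vec tumours (log2 fold change −0.22). Dnaja4 had 0.48, 0.60, 2.20 and 1.44 TPM in Cr1l tumours, against 2.26, 5.67 and 1.21 TPM in Vec tumours (log2 fold change −0.81, limma adjusted p = 0.408). It was highest in Vec 6, the tumour with the most muscle RNA and also the highest keratinocyte sum and globin share. With the muscle markers as a covariate its log2 fold change was 0.10. It was −1.22 with the macrophage markers and −1.19 with the melanocyte markers as a covariate. The part of any of these tissues in the Dnaja4 levels was not tested. Dnajb4 had 13.4, 13.6, 12.2 and 14.6 TPM in Cr1l tumours, against 18.9, 15.5 and 13.0 TPM in Vec tumours. Hspa4l, an HSP110 protein, had 10.96, 12.2, 10.3 and 10.1 TPM in Cr1l tumours, against 13.8, 7.27 and 9.35 TPM in Vec tumours. All of these overlapped between the groups.

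Hspa4 and Hspbp1 act as exchange factors of cytosolic HSP70, and neither passed the adjusted threshold. Hspa4, or APG-2, an abundant HSP110 protein, had 234, 200, 150 and 131 TPM in Cr1l tumours, against 277, 236 and 281 TPM in Vec tumours. The groups met closely at Cr1l 1 and Vec 6 without overlap (log2 fold change −0.60, SE 0.21, unadjusted p = 0.0223, limma adjusted p = 0.267, exact p = 0.0571), and Cr1l 3 and Cr1l 4 were again the lowest. With the macrophage markers as a covariate its log2 fold change was −0.34, and with the melanocyte markers it was −0.40. Hspbp1, which opens the nucleotide cleft of HSP70 and is matched by the rule although it is no heat shock protein, had 57.8, 51.4, 50.9 and 39.6 TPM in Cr1l tumours, against 81.7, 61.3 and 73.0 TPM in Vec tumours. The groups did not overlap (log2 fold change −0.52, SE 0.17, unadjusted p = 0.0146, limma adjusted p = 0.245, exact p = 0.0286), and the authors' deposited table gave −0.58 with an adjusted p of 0.0333.

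The chaperones of the ER went in both directions. Of 8 main ER genes, 1 was higher (beside 9.49% of all tested genes) and 0 were lower (beside 6.07%) at an unadjusted p under 0.05. None passed the adjusted threshold, and the median log2 fold change was 0.15. Hspa5, or BiP, the HSP70 of the ER and the sensor of unfolded protein there, had 568, 537, 556 and 550 TPM in Cr1l tumours, against 723, 581 and 654 TPM in Vec tumours. The Cr1l tumours lay within a narrow band just below the lowest Vec tumour (log2 fold change −0.23, SE 0.11, unadjusted p = 0.0762, limma adjusted p = 0.356, exact p = 0.0286).

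Dnajb9, or ERdj4, a J protein that is induced by the unfolded protein response and holds the sensor IRE1 in check, was on the other side. It had 17.5, 19.5, 22.3 and 26.3 TPM in Cr1l tumours, against 13.8, 13.9 and 15.1 TPM in Vec tumours, without overlap (log2 fold change 0.54, SE 0.17, unadjusted p = 0.0130, limma adjusted p = 0.238, exact p = 0.0571). The authors' deposited table gave 0.53 with an adjusted p of 0.156. Dnajc10, or ERdj5, which reduces disulfide bonds of proteins bound for degradation, had 67.9, 64.4, 55.3 and 58.7 TPM in Cr1l tumours, against 53.9, 36.8 and 53.1 TPM in Vec tumours. The groups did not overlap (log2 fold change 0.37, SE 0.17, limma adjusted p = 0.333, exact p = 0.0286), but Cr1l 3 and Vec 5 were close, and the log2 fold change was 0.19 without Vec 6 and 0.10 with the muscle covariate.

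The other main ER genes overlapped between the groups. Hsp90b1, or GRP94, the HSP90 of the ER, had 793, 731, 606 and 788 TPM in Cr1l tumours, against 771, 474 and 639 TPM in Vec tumours (log2 fold change 0.24). Dnajb11, a cofactor of BiP, had 99.5, 88.0, 88.3 and 89.0 TPM in Cr1l tumours, against 121, 82.3 and 101 TPM in Vec tumours. Dnajc3, or p58IPK, had 50.8, 46.7, 45.5 and 39.1 TPM in Cr1l tumours, against 54.4, 30.5 and 44.6 TPM in Vec tumours. In all 3 the Vec tumours spanned the Cr1l tumours or nearly so, with Vec 5 high and Vec 6 low. Dnajc1 had 46.2, 42.4, 31.6 and 33.8 TPM in Cr1l tumours, against 42.4, 30.6 and 50.7 TPM in Vec tumours. Hspa13 had 21.7, 20.7, 15.6 and 17.5 TPM in Cr1l tumours, against 20.2, 12.8 and 16.7 TPM in Vec tumours.

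The ER stress element, searched on both strands as CCAAT and CCACG with 9 bases of any kind between them, lay in the windows of 3 chaperone genes, Hspa5, Hsp90b1 and Dnajc3, which is 3.95% of their 76 windows, beside 0.119% of all windows. The stretches are shown because these genes share the element. Their log2 fold changes were small and differed in sign in the main fit. They were chr2:34771980-34772049, plus strand, for Hspa5, chr10:86705525-86705594, minus strand, for Hsp90b1, and chr14:118937782-118937851, plus strand, for Dnajc3 (GRCm38.p6), with the element in capitals.
Hspa5: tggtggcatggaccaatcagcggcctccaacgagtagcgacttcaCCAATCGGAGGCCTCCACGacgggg
Hsp90b1: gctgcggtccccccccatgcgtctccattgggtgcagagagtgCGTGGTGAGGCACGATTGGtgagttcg
Dnajc3: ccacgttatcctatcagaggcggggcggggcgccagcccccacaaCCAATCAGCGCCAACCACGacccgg
The log2 fold changes of these genes were −0.23 for Hspa5, 0.24 for Hsp90b1 and 0.11 for Dnajc3.

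Of 5 further J proteins set in the ER membrane, 4 had positive fold changes and 1 a negative one, where 44.6% of all tested genes were negative. Dnajb14, which helps to extract misfolded membrane proteins, had 5.29, 5.27, 6.49 and 8.13 TPM in Cr1l tumours, against 4.46, 3.16 and 4.56 TPM in Vec tumours, without overlap (log2 fold change 0.52, SE 0.23, unadjusted p = 0.0495, limma adjusted p = 0.320, exact p = 0.0286). Dnajc14, Dnajc16 and Dnajc18 overlapped between the groups, with 41.8 to 49.3, 9.74 to 11.98 and 15.7 to 19.98 TPM in Cr1l tumours, against 29.7 to 42.5, 6.63 to 11.9 and 12.7 to 18.3 TPM in Vec tumours. Dnajb12, the paralog of Dnajb14, had 16.6 to 20.2 TPM in Cr1l tumours, against 18.1 to 23.8 TPM in Vec tumours. Beyond the members, 0 of 25 other ER folding and unfolded protein response genes were at an unadjusted p under 0.05 in either direction, beside 9.49% (higher) and 6.07% (lower) of all tested genes, and their median log2 fold change was 0.03. Xbp1, the factor made active by IRE1, had 117, 119, 174 and 164 TPM in Cr1l tumours, against 128, 81.8 and 109 TPM in Vec tumours (log2 fold change 0.43, limma adjusted p = 0.364). Its 2 highest tumours, Cr1l 3 and Cr1l 4, were also those with the highest B and plasma cell marker sums, 1349 and 527 TPM, against 448 and 201 TPM in Cr1l 1 and Cr1l 2 and 39.7 to 69.2 TPM in Vec tumours. These were the 2 tumours highest in Dnajb9 and Dnajb14 too. They also had the highest sums of the 14 macrophage markers, given above, and of the 10 fibroblast markers, 6279 and 4975 TPM, against 790 and 1175 TPM in Cr1l 1 and Cr1l 2 and 168 to 1331 TPM in Vec tumours. With the macrophage markers as a covariate the log2 fold change of Dnajb9 was 0.41, and the part of fibroblasts and plasma cells in these levels was not tested.

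Mitochondrial chaperones overlapped between the groups, 1 gene of 8 excepted, which was higher in Cr1l tumours. Over all tested genes, 9.29% were higher and 6.67% lower without overlap. None of the 8 was at an unadjusted p under 0.05 (beside 9.49% higher and 6.07% lower of all tested genes), and the median log2 fold change was −0.08. Hspd1 (HSP60) and Hspe1 (HSP10) form the folding chamber of the matrix, lie side by side with overlapping spans, and share the promoter that holds the heat shock triplet. Hspd1 had 706, 599, 381 and 361 TPM in Cr1l tumours, against 634, 375 and 583 TPM in Vec tumours (log2 fold change −0.08). Hspe1 had 805, 748, 524 and 504 TPM in Cr1l tumours, against 696, 735 and 736 TPM in Vec tumours (log2 fold change −0.19). In both, Cr1l 1 and Cr1l 2 were high and Cr1l 3 and Cr1l 4 low. Hspa9 (mortalin), the matrix HSP70 that pulls proteins in, had 258, 242, 159 and 197 TPM in Cr1l tumours, against 257, 174 and 243 TPM in Vec tumours.

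Among the J proteins of mitochondria, Dnajc11, which binds the complex that shapes the cristae, was the exception without overlap. It had 44.3, 43.0, 38.0 and 40.1 TPM in Cr1l tumours, against 36.9, 25.8 and 34.4 TPM in Vec tumours (log2 fold change 0.36, SE 0.16, unadjusted p = 0.0518, limma adjusted p = 0.324, exact p = 0.0286). Dnaja3 (TID1), the main matrix partner of Hspa9, had 40.9, 34.0, 26.8 and 31.3 TPM in Cr1l tumours, against 23.7, 23.3 and 34.2 TPM in Vec tumours. Dnajc15, a J protein of the import motor, had 16.5, 13.3, 15.2 and 18.8 TPM in Cr1l tumours, against 11.9, 21.2 and 15.6 TPM in Vec tumours. Dnajc19, its relative in the motor, had 117, 119, 87.3 and 85.0 TPM in Cr1l tumours, against 110, 116 and 124 TPM in Vec tumours. Dnajc30 had 15.0 to 16.6 TPM in Cr1l tumours, against 16.6 to 18.9 TPM in Vec tumours. Of 9 other mitochondrial folding and protease genes, 2 were lower at an unadjusted p under 0.05 (beside 6.07% of all tested genes) and 0 higher (beside 9.49%). These were Grpel1, the exchange factor of mortalin (log2 fold change −0.52, limma adjusted p = 0.265), and Hscb, a J protein of iron-sulfur cluster assembly (log2 fold change −0.45, limma adjusted p = 0.270).

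Among the remaining J proteins, Dnajc17, a nuclear protein linked to splicing, had 20.9, 21.2, 20.6 and 12.7 TPM in Cr1l tumours, against 30.5, 26.3 and 26.9 TPM in Vec tumours. Cr1l 4 was lowest and the groups did not overlap (log2 fold change −0.57, SE 0.20, unadjusted p = 0.0239, limma adjusted p = 0.270, exact p = 0.0286). Hspa12b, a distant HSP70 of endothelial cells, had 4.76, 4.97, 10.9 and 6.38 TPM in Cr1l tumours, against 3.55, 4.18 and 3.02 TPM in Vec tumours (log2 fold change 0.70, SE 0.29, unadjusted p = 0.0433, limma adjusted p = 0.311, exact p = 0.0857). Cr1l 3, where it was highest, also had the highest sum of 10 endothelial markers, 540 TPM, against 145 to 201 TPM in the other Cr1l tumours and 91.0 to 243 TPM in Vec tumours. With the macrophage covariate the log2 fold change was 0.39 and with the muscle covariate 1.21, and the part of endothelium was not tested.

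Without overlap, but with unadjusted p above 0.05, were 3 more. Dnajc2, the ribosome-bound partner of Hspa14, had 37.1 to 62.0 TPM in Cr1l tumours, against 62.2 to 70.4 TPM in Vec tumours (log2 fold change −0.39). Dnajb6, which holds back aggregation of polyglutamine proteins, had 71.9 to 78.7 TPM in Cr1l tumours, against 81.2 to 100.1 TPM in Vec tumours (log2 fold change −0.25). Dnajc7, which binds both HSP70 and HSP90, had 153 to 174 TPM in Cr1l tumours, against 125 to 149 TPM in Vec tumours (log2 fold change 0.21). The gaps between the groups were small in all 3. Dnajc28 passed the filter through the Cr1l tumours alone, with means of 1.40 ± 0.492 TPM in Cr1l tumours and 0.627 ± 0.327 TPM in Vec tumours (SD, n = 4 and 3), and its ranges met between Cr1l 1 at 0.95 TPM and Vec 7 at 0.97 TPM. Hspb11, an intraflagellar transport protein, and Hspbap1 match the naming rule without being chaperones. Hspb11 had 8.97 to 19.6 TPM in Cr1l tumours, against 6.14 to 14.8 TPM in Vec tumours, and Hspbap1 had 1.53 to 4.39 TPM in Cr1l tumours, against 1.01 to 1.85 TPM in Vec tumours. The 18 tested members not described so far all overlapped between the groups and had unadjusted p above 0.05. Among them Dnajb5 had the largest log2 fold change, 0.53, with 4.55 to 8.16 TPM in Cr1l tumours, against 3.34 to 4.98 TPM in Vec tumours. Hspa14, the HSP70 of the ribosome-bound pair with Dnajc2, had 59.9 to 77.8 TPM in Cr1l tumours, against 72.7 to 93.2 TPM in Vec tumours. Dnajc5, the cysteine string protein of secretory vesicles, had 66.8 to 101.3 TPM in Cr1l tumours, against 89.0 to 115.8 TPM in Vec tumours. Dnajc13, of endosomes, had 31.6 to 39.6 TPM in Cr1l tumours, against 25.3 to 34.7 TPM in Vec tumours, and Dnajc8, of the spliceosome, had 95.5 to 110.7 TPM in Cr1l tumours, against 102.7 to 116.7 TPM in Vec tumours. The others were Dnaja2, Dnajb2, Dnajb13, Dnajc4, Dnajc9, Dnajc21, Dnajc22, Dnajc24, Dnajc25, Dnajc27, Hspa12a, Hspa1l and Hspa2, with log2 fold changes between −0.34 for Hspa1l and 0.25 for Dnajb2 and Dnajc24.

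The 6 members with a mean below 1 TPM were not tested. Dnajb8, a testis gene, was listed at 0 in every tumour except Vec 5, where it had 0.23 TPM. Hspb3, a muscle gene, had 0.14 TPM in Cr1l 1 and was listed at 0 in the other Cr1l tumours, against 0.32, 0.86 and 0.00 TPM in Vec tumours, highest again in Vec 6. Dnajb3, Dnajb7 and Dnajc6, the neuronal auxilin, were at most 1.07 TPM in any tumour. Dnajc12, a partner of the aromatic amino acid hydroxylases, had 0.38, 1.58, 1.47 and 2.27 TPM in Cr1l tumours, against 0.43, 0.46 and 0.33 TPM in Vec tumours. It was higher in 3 of the Cr1l tumours than in any Vec tumour, and the authors' deposited table gave 1.74 on the log2 scale (adjusted p = 0.0937).

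**Figure D4:**
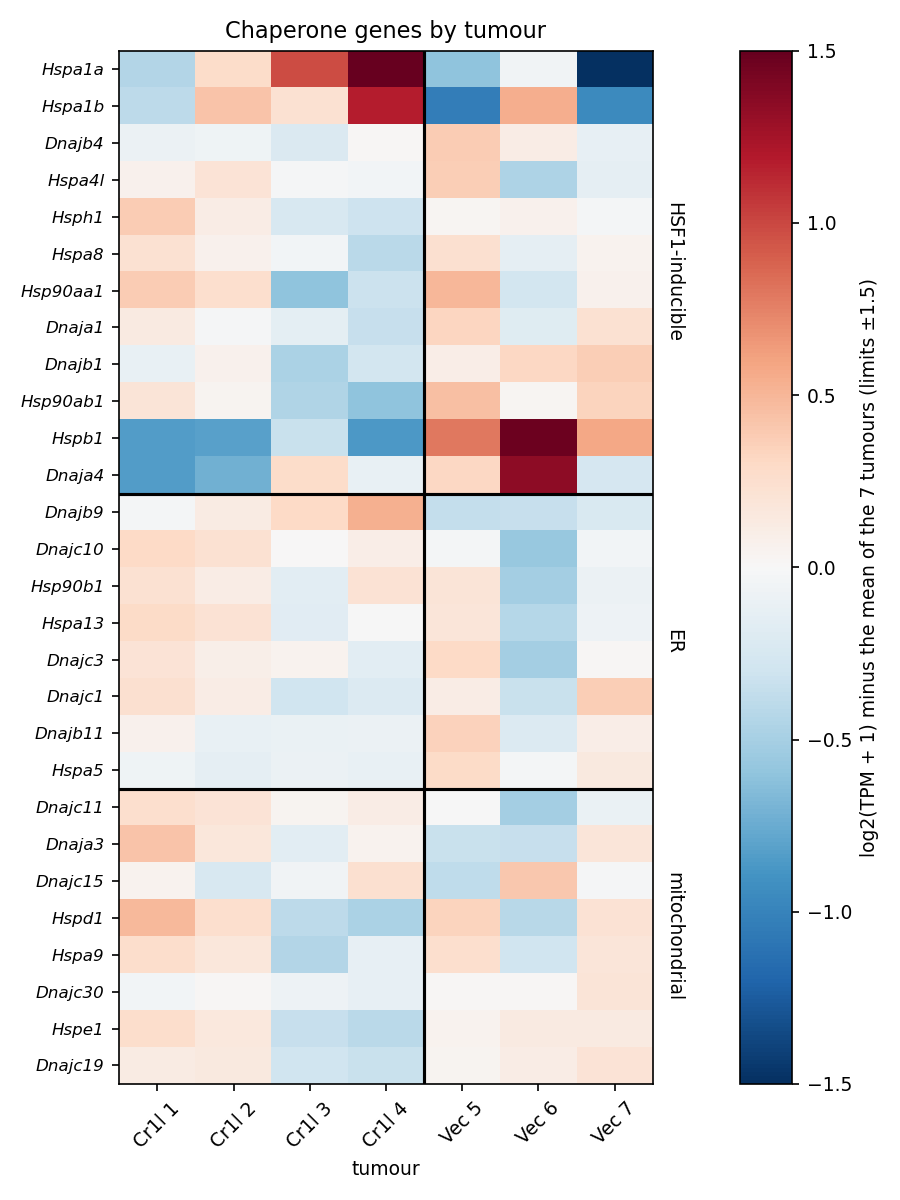
Log2(TPM + 1) of HSF1-inducible, ER and mitochondrial chaperone genes in each tumour minus the gene's mean over the 7 tumours (colour, cut at 1.5 in size), with the Cr1l columns left of the Vec columns. Hspb1 is blue in all Cr1l columns and red in all Vec columns, Hspa1a runs the other way in most, and rows such as Hsp90ab1, Hspd1 and Hspe1 are lower in Cr1l 3 and Cr1l 4 than in Cr1l 1 and Cr1l 2.

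Regulators and partners of the chaperones were read from lists that hold no member other than Hspbp1. Hsf1 had 71.5, 66.5, 51.2 and 51.6 TPM in Cr1l tumours, against 74.5, 64.5 and 73.3 TPM in Vec tumours, so the groups overlapped (log2 fold change −0.24). Hsf4, a heat shock factor of lens development, had 32.3, 28.4, 18.6 and 19.9 TPM in Cr1l tumours, against 42.7, 46.5 and 61.9 TPM in Vec tumours. It was the one heat shock factor whose groups did not overlap (log2 fold change −1.01, SE 0.23, limma adjusted p = 0.173, exact p = 0.0286), and the authors' deposited table gave −1.09 with an adjusted p of 0.00494.

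Counts in these lists are at an unadjusted p under 0.05, where 9.49% of all tested genes were higher and 6.07% lower. Of 25 co-chaperones of HSP70 and HSP90, 1 was higher and 4 were lower, with a median log2 fold change of −0.11. The higher one was Chordc1, an HSP90-binding protein, with 38.5, 36.7, 43.2 and 38.3 TPM in Cr1l tumours, against 28.2, 24.7 and 30.2 TPM in Vec tumours (log2 fold change 0.49, limma adjusted p = 0.219). Among the lower ones were Unc45a, a chaperone of myosin (log2 fold change −0.68, limma adjusted p = 0.219), and Fkbp5, an HSP90 cofactor that restrains the glucocorticoid receptor (log2 fold change −0.72, limma adjusted p = 0.263). Of 12 other HSF1 targets, some of them in the list of co-chaperones too, 1 was higher, again Chordc1, and 4 were lower, among them Ubb, a polyubiquitin gene. It had 1628, 1522, 1454 and 1358 TPM in Cr1l tumours, against 1960, 2129 and 2025 TPM in Vec tumours (log2 fold change −0.45, limma adjusted p = 0.203). Of 14 subunits of the CCT chaperonin and of prefoldin, which fold actin and tubulin, 2 were lower and 0 higher, and the median log2 fold change was −0.25. The 2 were the prefoldin subunits Pfdn1 (log2 fold change −0.27) and Pfdn2 (log2 fold change −0.37).

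Immediate-early genes, which stress and handling of tissue also induce, were read apart from the chaperones. Of 20 tested, 8 were lower (beside 6.07% of all tested genes) and 1 was higher (beside 9.49%) at an unadjusted p under 0.05, and the median log2 fold change was −0.38. Fos had 29.1, 32.1, 22.5 and 23.6 TPM in Cr1l tumours, against 178, 137 and 65.8 TPM in Vec tumours, without overlap (log2 fold change −2.10, limma adjusted p = 0.0918). Egr1 had 5.94, 6.56, 17.1 and 16.4 TPM in Cr1l tumours, against 33.3, 35.6 and 20.6 TPM in Vec tumours (log2 fold change −1.41, limma adjusted p = 0.226). Like Fos, Hspb1 and Hspb8 were lower in every Cr1l tumour than in any Vec tumour, while Hsph1 and Hspa8 overlapped between the groups.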

How the data were processed

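Messenger RNA of 7 tumours (4 Cr1l, 3 Vec) was sequenced without strand, per the labels' protocols. RSEM and DESeq2 were used with mm39, per the submitters' processing notes, while versions, aligner and annotation are not given in the sources. The authors deposited log2(TPM + 1) values per gene. The authors' deposited table gives a mean normalized count (a signal), a test statistic (a score), a p-value before and after adjustment, and a log2 fold change with its error, per the file headers. Its numerator is not named, and was read as Cr1l because Cr1l itself is positive there. A repertoire table was not used. TPM keeps no depth, so no counting precision can be given for the TPM of a tumour. The mean normalized counts over all tumours ranged widely, for example 756 for Hspb1, 181 for Hspb7 and 7.44 for Hspb9.

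Groups and tumour numbers came from the labels, which make each replicate a separate tumour. Vec 6 and Vec 7 have an extra number in their titles that the labels do not explain, and no batch is labelled. The 14954 genes averaging 1 TPM or more were fitted with limma 3.58.1 (R 4.3.3), with group as the 1 term, a variance trend and Benjamini-Hochberg adjustment over all genes. Tests are two-sided. Fold changes are Cr1l minus Vec on log2(TPM + 1), which understates low genes. The exact permutation test used all 35 splits, with 0.0286 as its smallest p. The fit was tested on simulated data.

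The chaperone genes, lists and tests were chosen with earlier results of these data known. Given in full are the HSF1-inducible, main ER and main mitochondrial genes, the expressed small heat shock proteins, the 10 most abundant members, the 12 with the smallest p and those past the threshold. From each partner list up to 4 genes with the smallest p, and a few fixed ones, may be named. Identifiers of the authors' table were matched to symbols through a mouse gene name table (27182 of 28369). Promoter sequences are from RefSeq, GRCm38.p6, and no position was moved between builds. Alternatives were pseudocount 0.1, no filter or 5 TPM, other scalings, limma without a trend, array weights, marker covariates, leaving out tumours and the authors' table. Plots were made in Python 3.11.15 (matplotlib 3.10.9).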

Additional observations from a re-analysis of the deposited data

Results flagged for a closer look

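Among the 4 Cr1l tumours, 66 tested members were searched for a tumour far from the other 3, taken as a gap above Dixon's critical share of the range, which chance gives in about 1 in 20 groups. There were 5 such members. Hspb1 had 53.25 TPM in Cr1l 3, against 36.62 to 38.12 in the other Cr1l tumours. Hspb7 had 1.16 TPM in Cr1l 3, against 0.08 to 0.20. Cr1l 3 also had the highest striated muscle marker sum of the Cr1l tumours, 331 TPM, against 10.7 to 29.0 TPM. Its keratinocyte sum was highest too, 90.6 TPM against 1.00 to 2.99 TPM. So were its endothelial sum, 540 TPM against 145 to 201 TPM, and its fibroblast sum, 6279 TPM against 790 to 4975 TPM. The part of any of these tissues in the Hspb1 and Hspb7 values was not tested. Dnajc21 had 23.60 TPM in Cr1l 3, against 34.17 to 35.67. Dnajc17 had 12.73 TPM in Cr1l 4, against 20.57 to 21.19. Dnajb11 had 99.46 TPM in Cr1l 1, against 87.96 to 88.99.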

How the results depend on the processing

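No paired analysis was possible because the tumour numbers are not shared between the groups. The number of members past an adjusted p of 0.05 as lower was 0, but 1 (Hspb1) with the melanocyte markers as a covariate, added after seeing the data, and 5 in the authors' deposited table. The number higher at an unadjusted p under 0.05 was 4, but 8 without mitochondrial and globin genes, 9 with the melanocyte covariate, 0 without Vec 6 and Vec 7 together, and 1 to 6 with 1 tumour left out (1 without Cr1l 3 or Cr1l 4, 2 without Vec 7). The number lower was 9, but 14 under median-of-ratios scaling and 14 in the authors' deposited table. The higher and lower counts were thus 4 and 9, against 3 and 14 under median-of-ratios scaling and 8 and 8 without mitochondrial and globin genes. Without overlap, 6 were higher and 11 lower, but 16 and 25 without Vec 6 and Vec 7, when 1 Vec tumour is left, and 7 to 10 were higher with 1 tumour left out (10 without Cr1l 1). Groups of fewer tumours fail to overlap more easily. With 1 Vec tumour left, any gene in which it lies outside the Cr1l range counts as not overlapping. The counts with tumours left out are not set beside a share of all genes, so no conclusion is drawn from their rise. The median log2 fold change of the tested members was −0.08, but 0.10 with the macrophage and 0.07 with the melanocyte covariate.

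Of 662 recomputed values of 35 members, 606 kept direction and side of the threshold, 6 newly passed it and 50, in 15 members, turned sign. The cause was not tested. With the muscle covariate the log2 fold change was −0.05 for Dnaja3, 0.10 for Dnaja4, −0.08 for Dnajc3, −0.07 for Hsp90b1, −0.08 for Hspa13, −0.03 for Hspa4l and 0.28 for Hspb9. With the macrophage covariate it was 0.12 for Dnajc1, 0.09 for Hsp90aa1, 0.03 for Hspa8, 0.11 for Hspa9, 0.23 for Hspd1, 0.06 for Hspe1 and 0.18 for Hsph1. With the melanocyte covariate it was 0.10 for Dnajc1, −0.09 for Dnajc15, 0.10 for Hsp90aa1, 0.03 for Hspa8, 0.12 for Hspa9, 0.21 for Hspd1 and 0.10 for Hsph1. Without Vec 6 and Vec 7 it was −0.26 for Dnajc3, −0.09 for Hsp90b1, −0.10 for Hspa13 and −0.32 for Hspa4l. Dnajc15 had −0.06 under median-of-ratios scaling, −0.01 with array weights and −0.10 in the authors' deposited table, and Hsph1 had 0.03 with array weights. With 1 tumour left out the values lay between −0.28 and 0.08 for Dnajc1, −0.19 and 0.20 for Dnajc15, −0.12 and 0.29 for Dnajc3, −0.35 and 0.04 for Hsp90aa1, −0.06 and 0.36 for Hspa4l, −0.18 and 0.03 for Hspa8, −0.25 and 0.06 for Hspa9, −0.35 and 0.15 for Hspb9, −0.31 and 0.07 for Hspd1, and −0.17 and 0.06 for Hsph1.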
